A study of Mus musculus with 7 samples.

Results

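Broad stretches of open chromatin that held many separate accessibility maxima were described in mammary tumour cells that did or did not express the Notch ligand gene Dll1. They were taken from ATAC-seq, in which a transposase inserts sequencing adapters wherever DNA is open. The cells came from spontaneous tumours of MMTV-PyMT mice on a C57BL/6 background, whose transgene drives the polyoma middle T oncogene from a mammary tumour virus promoter, and all mice also carried an mCherry reporter of Dll1 on a bacterial artificial chromosome. Blood and endothelial cells were removed by sorting on CD45, CD31 and Ter119, and the remaining epithelial-enriched cells were divided into mCherry-positive (Dll1+, 3 samples) and mCherry-negative (Dll1-, 4 samples) cells. The titles of the 7 samples carry 4 numbers, 3 of which occur in both populations. The labels do not say whether a number stands for a tumour or an animal, and they give no age. The paper's methods state that the cells came from 4 tumours. One pooled peak list per population was analysed, so that no difference below could be set against the spread between samples and no test was run.

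Each row of a list gave an interval and 1 summit, the position of a local maximum of reads, so that an interval filled as many rows as it had summits. Rows of both lists that overlapped or touched were merged into 119215 union regions. A union region was kept when it was at least 1500 bp wide and held 4 or more summit rows in at least 1 list. The members were thus chosen by width and summit number, both measured in these lists. The rule left 1312 regions (1.10% of all), which covered 2.28 Mb or 3.56% of the accessible bases. They took up 5987 Dll1+ summit rows (4.51% of that list) and 5509 Dll1- rows (3.70%). A member was called promoter when it overlapped the stretch from 1000 bp upstream to 100 bp downstream of an annotated transcription start site (TSS), and distal otherwise. By this definition 1030 members were promoter and 282 were distal. All but 1 member were called in both lists.

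As background, open chromatin forms where nucleosomes are displaced by transcription factors and the transcription machinery, and most such sites are narrow. CpG islands, stretches rich in unmethylated CG dinucleotides, lie at the promoters of most widely expressed genes and stay open over longer stretches. Broad accessible stretches also occur over clustered enhancers, where factors such as AP-1, a dimer of Fos and Jun proteins, bind, and over strongly transcribed genes, where passing polymerases disturb nucleosomes.

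Windows of 201 bases centred on the strongest summit are shown for 9 members, on the plus strand of GRCm38. Capitals mark matches to the AP-1 consensus (TGAGTCA or TGACTCA) or to the SP/KLF consensus (GGGCGG or its reverse complement). The windows of Mir17hg (chr14:115040797-115040997) and Samd1 (chr8:83997042-83997242) are shown as CpG-rich promoter members. Their strongest summits lay 1982 and 530 bp upstream of the TSS, so neither window covers the TSS. That of Samd1 also lay 699 bp past the end of Prkaca. Those near Sox9 (chr11:112811650-112811850) and Eif4g2 (chr7:111245118-111245318) are distal members with more reads in Dll1- cells, and each holds an AP-1 match.
Mir17hg: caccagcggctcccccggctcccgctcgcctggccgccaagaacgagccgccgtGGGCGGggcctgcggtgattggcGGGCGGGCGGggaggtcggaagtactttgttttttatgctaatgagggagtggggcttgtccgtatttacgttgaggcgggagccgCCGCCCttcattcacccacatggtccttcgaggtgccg
Samd1: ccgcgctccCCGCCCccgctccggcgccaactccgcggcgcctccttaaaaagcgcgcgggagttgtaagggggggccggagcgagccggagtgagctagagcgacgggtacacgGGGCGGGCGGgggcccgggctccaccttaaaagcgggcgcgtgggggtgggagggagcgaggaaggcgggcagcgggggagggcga
Sox9: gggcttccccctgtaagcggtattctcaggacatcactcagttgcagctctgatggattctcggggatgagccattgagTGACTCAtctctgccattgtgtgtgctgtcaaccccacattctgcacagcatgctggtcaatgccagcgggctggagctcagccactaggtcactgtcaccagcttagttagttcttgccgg
Eif4g2: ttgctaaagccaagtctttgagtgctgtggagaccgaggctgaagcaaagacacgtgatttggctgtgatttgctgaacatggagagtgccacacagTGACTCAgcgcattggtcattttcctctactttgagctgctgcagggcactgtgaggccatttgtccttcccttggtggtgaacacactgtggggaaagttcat

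The distal members near Igfbp5 (chr1:72856838-72857038), Ndufaf6 (chr4:11048431-11048631) and Akap2 (chr4:57820523-57820723) had more reads in Dll1+ cells, and their windows hold no match to either consensus. The windows past the ends of Fos (chr12:85477338-85477538) and Hspa8 (chr9:40807691-40807891) stand for members at gene ends with a raised local background, and they too hold no match.
Igfbp5: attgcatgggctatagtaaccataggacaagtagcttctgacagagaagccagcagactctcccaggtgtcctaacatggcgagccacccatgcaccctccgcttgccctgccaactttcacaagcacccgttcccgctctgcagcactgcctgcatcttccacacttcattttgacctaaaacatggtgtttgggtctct
Ndufaf6: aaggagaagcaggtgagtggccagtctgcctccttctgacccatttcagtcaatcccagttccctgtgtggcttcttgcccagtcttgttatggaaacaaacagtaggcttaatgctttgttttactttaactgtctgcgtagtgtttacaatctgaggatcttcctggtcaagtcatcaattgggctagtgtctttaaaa
Akap2: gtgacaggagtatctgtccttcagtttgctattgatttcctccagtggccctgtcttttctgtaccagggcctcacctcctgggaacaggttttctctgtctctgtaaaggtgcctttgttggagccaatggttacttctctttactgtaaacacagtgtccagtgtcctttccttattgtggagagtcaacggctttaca
Fos: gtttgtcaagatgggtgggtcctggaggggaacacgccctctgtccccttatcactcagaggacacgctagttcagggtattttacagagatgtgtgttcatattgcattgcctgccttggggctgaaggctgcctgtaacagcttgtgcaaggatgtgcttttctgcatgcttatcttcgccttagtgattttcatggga
Hspa8: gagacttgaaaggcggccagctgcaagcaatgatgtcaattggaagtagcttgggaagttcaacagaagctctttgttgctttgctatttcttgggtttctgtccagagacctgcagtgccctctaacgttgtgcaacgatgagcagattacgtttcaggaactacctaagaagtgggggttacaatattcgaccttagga

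Broad many-summit regions mostly overlapped promoters. Of the members, 78.5% (95% counting interval 76.2 to 80.6%) overlapped a promoter window, against 15.0% of the other union regions. Members made up 5.49% of all promoter regions and 0.281% of all distal regions. A wide region is more likely to touch a promoter window by its width alone. The strongest summit lay within 500 bp of a TSS in 66.3% of members and 13.0% of the other regions. It was picked from all rows of a region, so a wide region had more candidates and this share also depends on width. When only the midpoint of a region decided its class, 48.9% of members were promoters.

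The members sat above the chosen thresholds without a gap. Median width was 1694 bp in promoter members, with a maximum of 3162 bp, and 1652 bp in distal members, with a maximum of 3399 bp. Just inside the width threshold, 396 members were narrower than 1600 bp, and just outside it 515 regions of 1400 to 1499 bp held 4 or more rows in a list. Exactly 4 rows in the richer list were held by 548 members, while 164 regions of at least 1500 bp held at most 3 rows in either list. The promoter region of Vps13a (1500 bp, 4 rows in Dll1+ and 2 in Dll1-) was just inside, and that of Csnk1d (1499 bp, 4 rows in each) just outside. A distal region 149707 bp from the Zfp36l2 TSS was also just inside (1500 bp, 3 and 4 rows). The widest region that failed on rows was the promoter of Dnajb9, a chaperone gene of the endoplasmic reticulum (2128 bp, 3 rows in each list).

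Summit numbers were close to each other in the 2 lists. These numbers chose the members and are given as a description only. They differed by at most 1 row in 78.5% of members, and 860 members (65.5%) held 4 or more rows in both lists. The Dll1+ list had more rows in 593 members (45.2%), where the background over all 79153 regions called in both lists was 14.6%. The Dll1- list had more rows in 292 members (22.3%), beside a background of 10.4%. Promoter members had more rows in Dll1+ in 476 cases (46.2%), equal rows in 348 (33.8%) and more rows in Dll1- in 206 (20.0%). Distal members were split 117 (41.5%), 79 (28.0%) and 86 (30.5%) in the same order. The background over all regions is mostly regions with few rows, which cannot differ by much, so nothing is read from the distance between members and background. A single member was called in 1 list only. It lay at chr13:11350607-11352134, 755441 bp downstream of the TSS of the calcium channel gene Ryr2, with 4 rows and a strongest summit of 50 reads in Dll1+ and no row in the other list. Over all union regions, 9.01% had rows of the Dll1+ list only and 24.6% of the Dll1- list only.

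**Figure D1:**
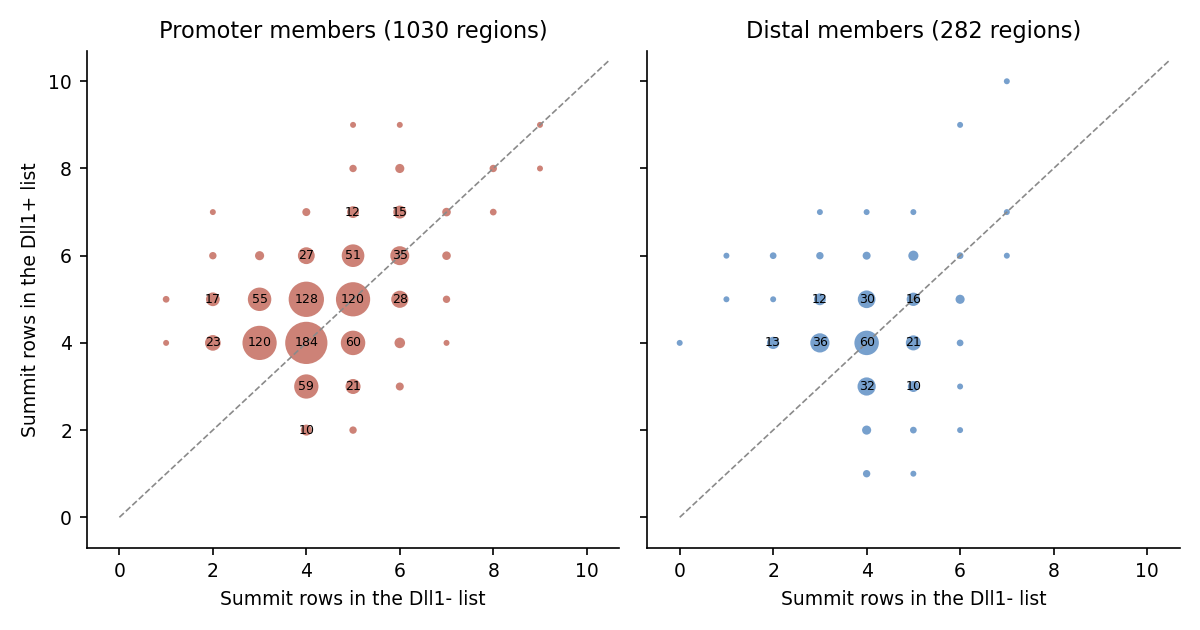
Summit rows per member in the Dll1- list (x axis) and the Dll1+ list (y axis), for 1030 promoter members (left) and 282 distal members (right). The area of each disc grows with the number of members, printed where it is 10 or more, and the dashed line marks equal numbers. The fullest disc in both panels is at 4 rows in each list (184 promoter and 60 distal members).

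The lists differed in depth, and taking rows from the Dll1- list moved the split of summit rows. The genome-wide background recovered from the deposited values was 3.74 reads in Dll1+ and 7.20 in Dll1-. After the Dll1- reads were thinned by the ratio of these backgrounds (a fraction of 0.519), 52.3% of promoter members and 49.8% of distal members had more rows in Dll1+. This thinning matches the background alone, and the median of shared regions, used for reads below, sets a different scale. With equal numbers of rows taken from each list, these shares were 64.3% and 61.8%. Both steps took rows from the Dll1- list alone, which raises these shares by construction.

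Among promoter members, the most summit rows were held by Nr3c1, which encodes the glucocorticoid receptor, with 9 rows in each list over 2643 bp. Its summits ran from -1781 to 566 bp of the TSS (downstream positive) in Dll1+ and from -1777 to 526 bp in Dll1-. Of these, the summit near -100 bp (286 reads in Dll1+, 384 in Dll1-) and the far upstream summit (232 and 388 reads) were the highest in each list. The next were Gm11410 (8 rows in Dll1+ and 9 in Dll1-), Alyref2, Mir17hg and Galnt7 (8 and 8 each). Alyref2 encodes an mRNA export factor, Mir17hg is the host transcript of a microRNA cluster known as oncogenic, and Galnt7 encodes an enzyme of mucin-type glycosylation. Gm11410 stood on a local background of 79.9 reads in Dll1+ and 132 in Dll1-, far above the other members of this group (6.71 to 34.2 reads in Dll1+). Samd1, whose product binds unmethylated CpG islands, and Phf2, which encodes a histone demethylase, each had 7 rows in Dll1+ and 8 in Dll1-. St6gal1, which encodes a sialyltransferase, had 9 and 6.

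The largest excess of Dll1+ rows among promoter members was at Ntn4, which encodes a netrin of the basement membrane (7 against 2 rows). It was followed by the ubiquitin ligase gene March7 (6 against 2), Tmem65 (6 against 2) and the deubiquitinase gene Usp24 (9 against 5). The strongest summit of Ntn4 held 39 reads in Dll1+ and 40 in Dll1- (centred log2 ratio, defined below, of 0.67, interval -0.01 to 1.34). That of March7 held 192 and 321 reads (-0.04), that of Tmem65 275 and 486 (-0.12) and that of Usp24 102 and 182 (-0.13), so that only Ntn4 of these 4 had a ratio above 0. In the other direction the largest excess was at the collagen gene Col24a1 (3 rows in Dll1+ and 6 in Dll1-), Ndrg2 (3 and 6), 2310061I04Rik (2 and 5) and the forkhead gene Foxd1 (2 and 5). Over the 82 members with unequal rows whose strongest summits differed past 1.5-fold, the rows and the reads pointed in opposite directions in 42.

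Reads at the strongest summit were compared as a log2 ratio, Dll1+ over Dll1-, centred on the median of all regions called in both lists. The rule did not use reads in themselves, although a summit must be read to be called. A ratio past 1.5-fold was counted as a difference of size, without a test. Promoter members held a median of 162 reads in Dll1+ (range 17 to 977) and 261.5 in Dll1- (range 32 to 1388), and their log2 ratios had a median of 0.00 with an SD of 0.29 over members. Of these, 33 (3.20%) were past 1.5-fold higher in Dll1+ and 23 (2.23%) past 1.5-fold higher in Dll1-. The row minimum was met only in the Dll1+ list by 228 promoter members (22.1%) and only in the Dll1- list by 97 (9.42%), so the choice of members bears on these counts. The background over all shared regions was 12.5% and 12.3%. The other promoter regions gave 4.74% and 7.45%, a set with fewer reads and therefore wider counting error. Among promoter regions with at least 100 reads in both lists, 2.89% of members (23 of 796) and 2.33% of other regions were higher in Dll1+. In Dll1- these shares were 0.126% (1 of 796) and 1.40%. The floor of 100 was set on unscaled reads, and the Dll1- list was deeper. A region higher in Dll1- thus needs more reads to pass it, and the split by direction is not read.

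Distal members held a median of 97.5 reads in Dll1+ (range 22 to 681) and 147 in Dll1- (range 26 to 986), and their log2 ratios had a median of 0.16 with an SD of 0.46. Past 1.5-fold, 44 of 281 (15.7%, interval 11.9 to 20.4%) were higher in Dll1+ and 18 (6.41%, interval 4.09 to 9.90%) in Dll1-. The same backgrounds of 12.5% and 12.3% apply, and the other distal regions gave 14.5% and 13.6%, so that the share of distal members higher in Dll1+ was near that of other distal regions. The row minimum was met only in the Dll1+ list by 71 distal members (25.2%) and only in the Dll1- list by 56 (19.9%). With at least 100 reads in both lists, 17.9% of distal members (24 of 134) and 12.7% of other distal regions were higher in Dll1+, against 2.24% and 2.59% higher in Dll1-. This floor was set on unscaled reads of lists that differ in depth, so it removes regions higher in Dll1- more readily. The split by direction under the floor is therefore not read. The deposited fold enrichment sets a summit against its own local background, and its median log2 ratio was 0.00 in distal and -0.06 in promoter members. Scaled by the genome-wide background instead of the shared regions, the medians were 0.40 in distal and 0.25 in promoter members. In pooled cells, a larger share of cells with a region open and a more open region per cell cannot be told apart.

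**Figure D2:**
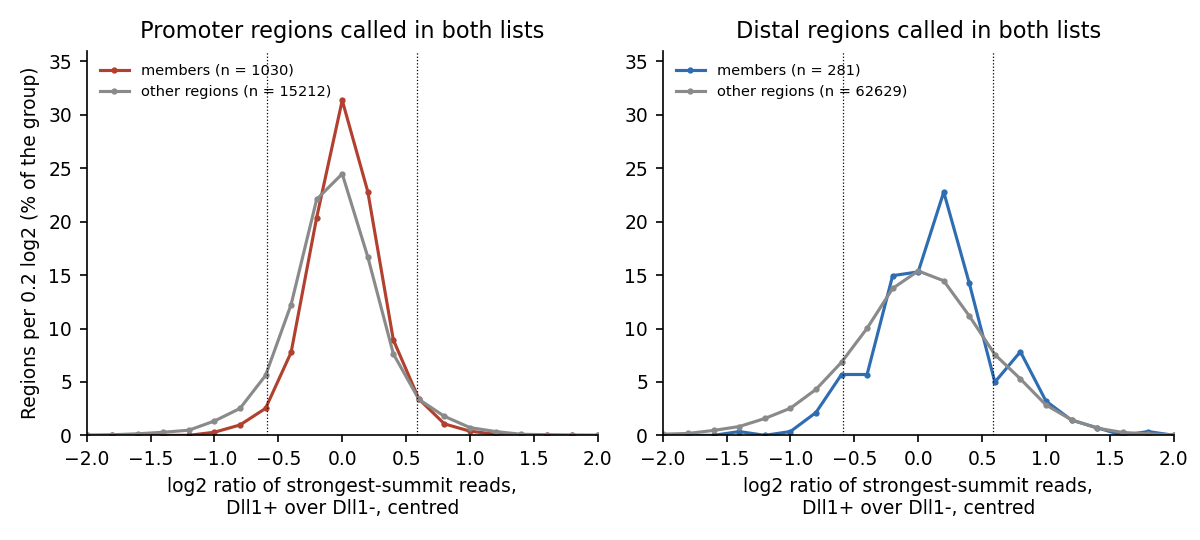
Distribution of the centred log2 ratio of strongest-summit reads, Dll1+ over Dll1-, in bins of 0.2, for promoter (left) and distal (right) regions called in both lists, as a percentage of each group. Coloured lines are members, grey lines the other regions and dotted lines 1.5-fold. Promoter members gather at 0.00, while the highest point of the distal members lies to the right of 0.

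The promoter member with the highest ratio towards Dll1+ was Adamts12, a secreted metalloprotease gene, at chr15:11064290-11066128. Its 5 Dll1+ summits held between 20 and 100 reads, and its 2 Dll1- summits held 48 and 69. The log2 ratio of the strongest summits was 1.24 (95% counting interval 0.78 to 1.70). A member called promoter through the gene model Gm8696 followed, with 187 reads in Dll1+ and 147 in Dll1- (1.05, interval 0.73 to 1.37). Its strongest summit lay 899 bp past the end of Hspa1b, an inducible heat shock protein gene. The Dll1 promoter itself was a member (chr17:15375292-15377192) with 5 rows in each list, 498 reads in Dll1+ and 399 in Dll1- (1.02, interval 0.83 to 1.22). Mir99ahg, the host transcript of another microRNA cluster, held 76 and 64 reads (0.95, interval 0.45 to 1.46).

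Towards Dll1-, the highest ratios among promoter members were at Rnf10 and Gli3. The strongest summit of Rnf10, a ring finger gene, held 56 reads in Dll1+ and 194 in Dll1- (-1.09, interval -1.54 to -0.65). Gli3, a transcription factor of the Hedgehog pathway, held 31 and 99 reads (-0.97, interval -1.60 to -0.38). Golga4 and Clstn1, which encode proteins of vesicle transport, followed at -0.96 and -0.90. The strongest Dll1- summit of each of these 4 genes lay within 100 bp of its TSS. At Clstn1 the strongest Dll1+ summit lay elsewhere, 1038 bp downstream of the TSS with 32 reads, so that its ratio compares different summits.

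Dll1, the gene of the reporter, also had a distal member 106669 bp downstream of the Dll1 TSS (chr17:15267726-15270184), with 475 reads in Dll1+ and 330 in Dll1- (1.23, interval 1.02 to 1.44). These are different summits, and next to the strongest Dll1+ one the Dll1- list held 306 reads. Both Dll1 members stood on a raised local background, 87.0 reads at the promoter and 55.3 at the distal member in Dll1+, against the genome-wide 3.74. The reporter construct was built on a bacterial artificial chromosome with Dll1 sequence and was present in both populations, so reads of the endogenous gene and of the transgene cannot be told apart.

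**Figure D3:**
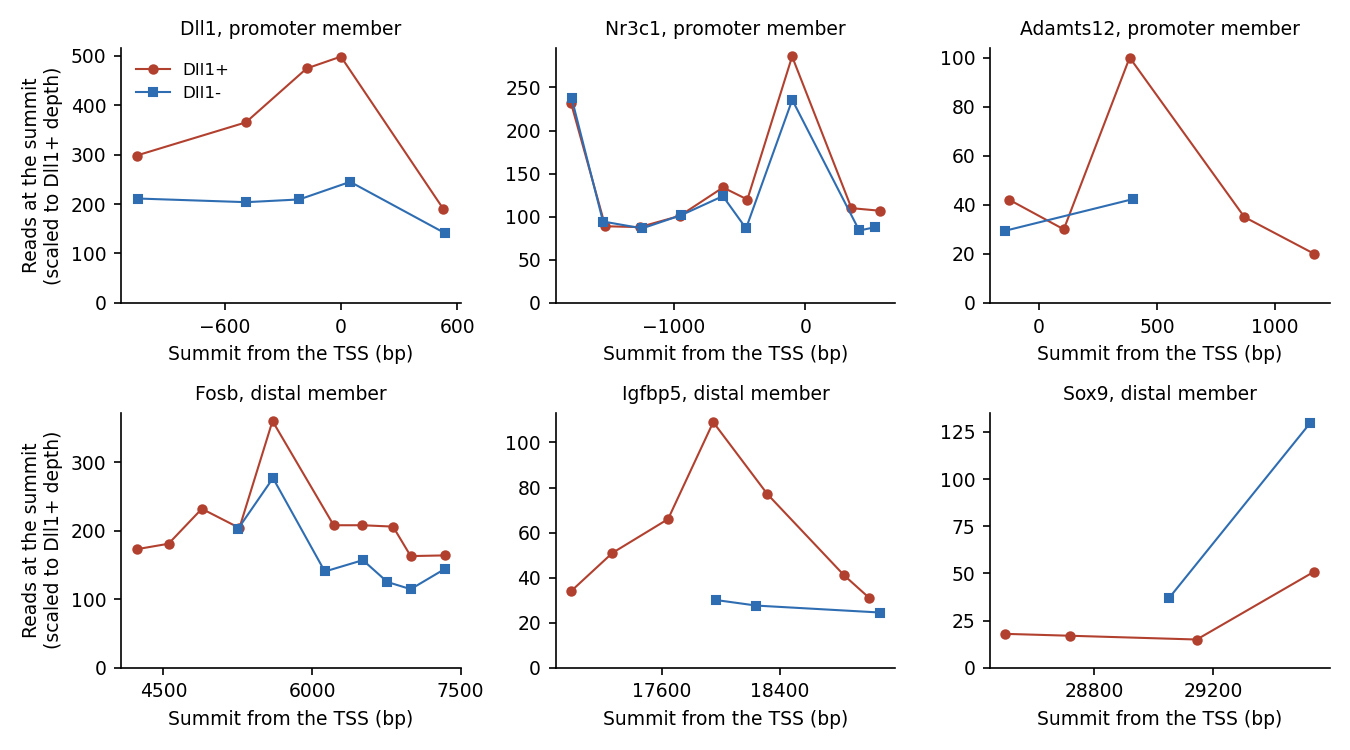
Reads at each summit (y axis, Dll1- reads scaled to the Dll1+ list by the median ratio of shared regions) against its distance from the TSS (x axis, bp, downstream positive) in 3 promoter members (top) and 3 distal members (bottom). Red circles are the Dll1+ list and blue squares the Dll1- list, and lines only join the summits of a list. At Nr3c1 the 9 summits of each list follow each other, while at Igfbp5 the 7 Dll1+ summits lie above the 3 Dll1- summits and at Sox9 the Dll1- list is higher.

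Among distal members, the most summit rows were at the gene ends of Fosb (10 in Dll1+ and 7 in Dll1-) and Hspa8 (9 and 6), described further on. Next came members upstream of Fbxo28 (7 and 7 rows), Irf2bp2 (6 and 7) and Fam3c (6 and 6), at 26357, 72543 and 34465 bp from the TSS. Smpdl3a (7 and 5) and Fjx1 (6 and 6) had theirs just inside the gene, 567 and 265 bp downstream of the TSS and past the promoter window, while that near Btg1 (5 and 6) lay 136240 bp upstream. Their reads differed in direction, from 169 in Dll1+ and 397 in Dll1- near Irf2bp2 (-0.53, interval -0.80 to -0.26) to 68 and 61 near Fam3c (0.86, interval 0.34 to 1.38). Only 13 of the 282 distal members lay within 2000 bp of a coding TSS, and 34.0% lay over 50 kb from one, against 36.3% of other distal regions. The strongest summit was intronic in 46.5% of distal members and intergenic in 44.0%.

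The highest ratio of a distal member towards Dll1+ was near Igfbp5, which encodes a binding protein of insulin-like growth factors. This member (chr1:72855692-72857941, 994 bp past the end of the gene) had 7 rows in Dll1+ and 3 in Dll1-. Its strongest summits held 109 and 49 reads (1.86, interval 1.36 to 2.38), and its local background was also higher in Dll1+ (20.4 against 12.5 reads). Ndufaf6 (117 and 70 reads, 1.45, interval 1.01 to 1.89), Ano4 (110 and 72 reads, 1.32) and Akap2 (109 and 74 reads, 1.26) were next. Ndufaf6 encodes an assembly factor of respiratory complex I, Ano4 a membrane protein of the anoctamin family and Akap2 an anchor of protein kinase A. Large excess of rows in Dll1+ was also found at Actg1, which encodes a cytoplasmic actin, 422 bp past the gene end (6 against 1 row, 194 and 267 reads, 0.24, interval -0.03 to 0.52). It was followed by Dclk1 (5 against 1 row, 31 and 30 reads, 0.75) and Lgsn (6 against 2 rows, 44 and 43 reads, 0.74).

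Towards Dll1-, the distal member with the largest ratio lay 29526 bp downstream of the TSS of Sox9, a transcription factor gene of mammary stem and progenitor cells (chr11:112810421-112811952). Its strongest summit held 51 reads in Dll1+ and 211 in Dll1- (-1.34, interval -1.81 to -0.90), although it had 4 rows in Dll1+ and 2 in Dll1-. Rows and reads thus pointed in opposite directions at this member. Lyzl1 (25 and 80 reads, -0.97), Hdac7 (33 and 98 reads, -0.87) and Eif4g2 (48 and 142 reads, -0.86) followed, each named for the nearest gene. The members near Sox9, Lyzl1, Hdac7 and Eif4g2 each held the AP-1 consensus within 100 bp of the strongest summit. Strongest summits of the lists lay within 100 bp of each other in 87.9% of promoter and 76.5% of distal members, so that some ratios compare different summits of a member. Those near Dclk1 and Lgsn are such cases, as is the one near Eif4g2: next to its strongest Dll1- summit the Dll1+ list had a summit of 41 reads. Distal members with a large excess of Dll1- rows included those near Krt18 (1 against 5 rows), Lyzl1 (1 against 4) and Stpg2 (2 against 5 rows, 45 and 82 reads, -0.16).

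Promoter members were rich in CG. At the strongest summit, median GC content was 68.2% in promoter members and 61.2% in other promoter regions, and the median ratio of observed to expected CpG was 0.857 and 0.669. A window with at least 50% GC and a CpG ratio of at least 0.6, as in CpG islands, was found in 81.7% of promoter members (interval 79.3 to 84.0%) and 55.1% of other promoter regions. Another gene started on the opposite strand within 1000 bp in 25.7% of members and 17.1% of other promoter regions. Distal members had a median GC content of 52.7%, against 49.3% in other distal regions, and 14.2% of them (40 of 282) held such a CpG-rich window, against 2.97% of other distal regions. Among distal members, 1 of these 40 CpG-rich regions was past 1.5-fold higher in Dll1+, while 43 of the 241 CpG-poor ones (17.8%) were.

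Extra summits of promoter members lay on both sides of the TSS and more often inside the gene. The strongest summit had a median position 44 bp upstream of the TSS in members and 53 bp upstream in other promoter regions, and lay within 100 bp of the TSS in 52.1% and 53.2%. Of Dll1+ summits, 28.2% in members and 9.29% in other promoter regions lay more than 500 bp downstream. The shares more than 500 bp upstream were 18.7% and 13.2%. The Dll1- list gave 28.3% and 18.4% for members. Members reached a median of 992 bp downstream and 738.5 bp upstream, and 63.5% reached farther downstream. Since members are wide by the rule, summits far from the TSS were bound to be more frequent. The balance between the sides depends on the promoter window, which ran 1000 bp upstream but 100 bp downstream. It also depends on the choice of TSS, which was the one nearest to the strongest summit, coding where possible.

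**Figure D4:**
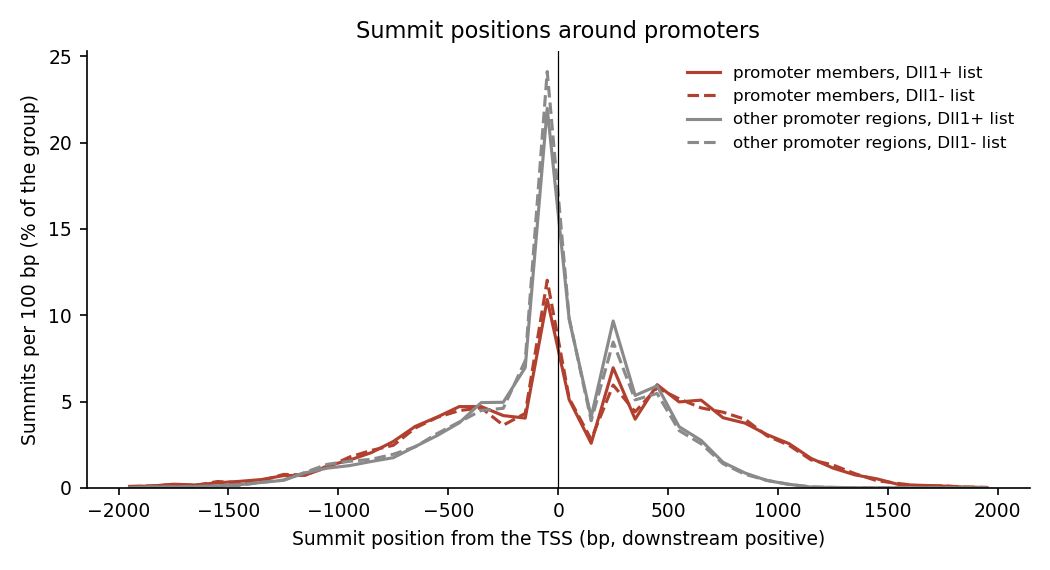
Positions of summits relative to the TSS (x axis, bp, downstream positive) as the percentage of each group's summits per 100 bp (y axis). Red lines are promoter members and grey lines other promoter regions, solid for the Dll1+ list and dashed for the Dll1- list. Both groups peak just upstream of the TSS, dip beyond it and rise again downstream, and members extend farther inside the gene.

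Neighbouring summits of promoter members lay a median of 319 bp apart in Dll1+ and 341 bp in Dll1-, and those of distal members 353 and 356 bp. A distance of 150 to 250 bp, about 1 nucleosome repeat, was found for 23.0% of neighbouring summits of promoter members in Dll1+ and 16.3% in Dll1-. In the regions outside the rule the shares were 24.6% and 21.4%.

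Each window of 100 bp to either side of a summit was scanned for consensus sequences on both strands, and a match describes the letters only. AP-1 was present in 10.3% of distal member windows (interval 9.11 to 11.6%) and 16.8% of windows of other distal regions, and in 3.18% and 5.72% of promoter windows. At the strongest summit alone it was in 15.6% of distal members (interval 11.8 to 20.3%) against 20.0% of other distal regions, and with 50 bp each side in 13.8% (interval 10.3 to 18.3%) against 15.0%, differences within the counting interval. The CTCF consensus, of the insulator protein, was in 1.04% of distal member windows against 3.77%, and in 0.316% of promoter member windows against 1.21%. SP/KLF was more frequent in members, 49.5% against 43.4% in promoters and 15.0% against 6.92% in distal windows. At the strongest summit alone SP/KLF reached 68.2% of promoter members and 47.9% of other promoter regions. NFY (CCAAT) was in 16.6% of promoter member windows against 23.5%. Windows of neighbouring summits can overlap, and members carry more summits per region than other regions.

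Other consensus sequences were counted in the same windows. In distal windows, TEAD (CATTCC after a purine and before A or T) was in 4.06% of member windows against 7.19% and SOX (ACAATGG) in 2.55% against 4.48%. At the strongest summit alone TEAD was in 5.67% of distal members (interval 3.52 to 9.02%) against 7.51%. SOX was there in 2.84% (interval 1.44 to 5.50%) against 4.66%, and both differences were within the counting interval. NF-kB was in 4.72% of promoter member windows against 3.93% and in 3.50% of distal member windows against 2.85%. At the strongest summit alone it was in 3.69% of promoter members against 3.59%, and with 50 bp each side in 1.26% against 1.84%. RBPJ (GTGGGAA after C or T), the factor of Notch signalling, was in 1.24% of promoter member windows against 1.89% and in 2.12% of distal member windows against 2.08%. The others were ETS (ACCGGAAGT), GRHL (AACCGGTT), RUNX (TGTGGTT before A or T), FOX (TGTTTAC), NRF1 (GCGCATGC), CRE (TGACGTCA), YY1 (AAGATGGC) and GATA (GATAA between A or T and C or G). Each of these was in at most 4.02% of member windows of either class.

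**Figure D5:**
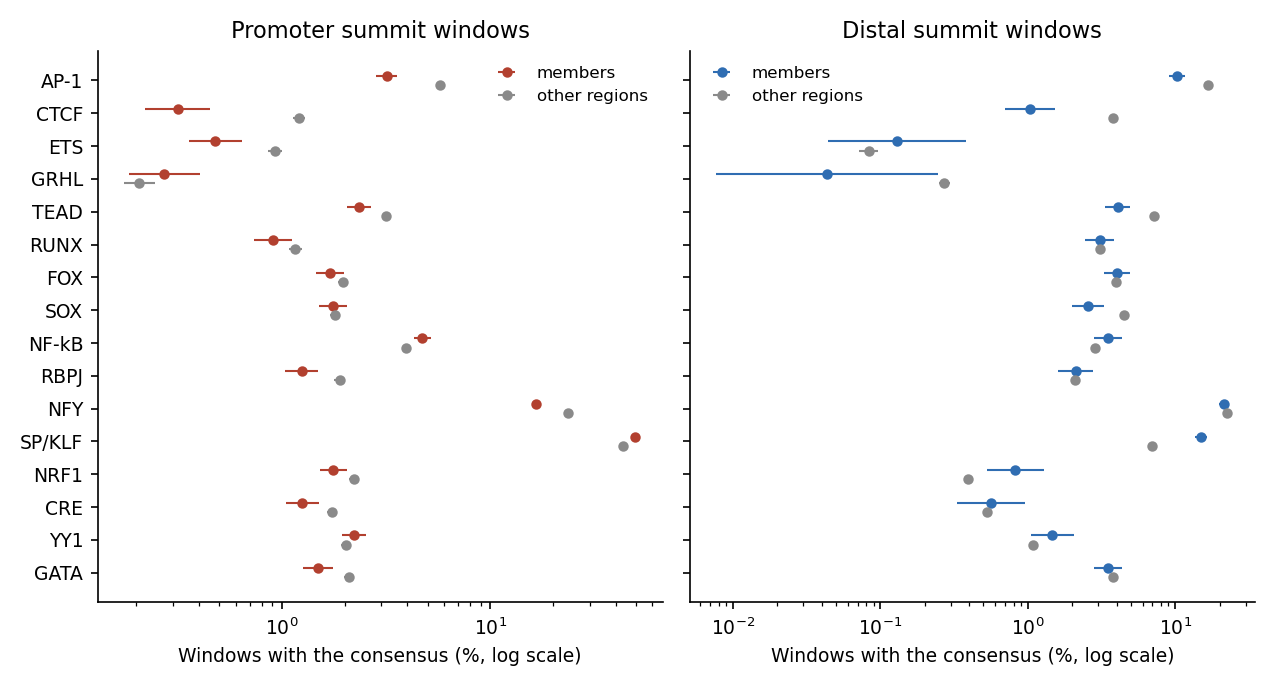
Percentage of windows of 100 bp each side of a summit that hold a consensus sequence (x axis, log scale), for 16 consensus sequences, in promoter (left) and distal (right) windows. Coloured points are members and grey points other regions of the same class, with Wilson 95% intervals. AP-1, CTCF and TEAD lie lower in members in both panels, and SP/KLF lies higher.

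AP-1 matches were then set against the log2 ratios of distal members. Members with the consensus at the strongest summit had a median log2 ratio of -0.16 (n = 44), and those without it 0.19 (n = 237). The consensus was present in 10 of the 18 distal members past 1.5-fold higher in Dll1- (55.6%, interval 33.7 to 75.4%) and in 1 of the 44 past 1.5-fold higher in Dll1+ (2.27%, interval 0.402 to 11.8%). Among members within 1.5-fold it was in 15.1%. Other distal regions showed 41.2%, 4.69% and 15.7% in the same order, so the pattern was shared with them. The window was centred on the summit with most reads after scaling, in whichever list that was.

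A group of distal members lay at the ends of annotated coding genes. The strongest summit fell between 500 bp inside and 3000 bp past the end of a coding gene in 29 of 282 distal members (10.3%, interval 7.26 to 14.4%) and in 5.35% of other distal regions. The widest member of all was among them, at the end of Fosb, a Fos family gene (chr7:19302052-19305450, 3399 bp). It held 10 rows in Dll1+ and 7 in Dll1-, and its strongest summits held 360 and 451 reads over a local background of 108 and 130. Other immediate-early response genes had such a member too. That of Egr1, 599 bp past the gene end, held 289 reads in Dll1+ and 248 in Dll1- (0.93, interval 0.68 to 1.18). Those of Fos (375 and 399 reads, 0.62), Btg2 (139 and 169 reads, 0.42) and Zfp36 (357 and 623 reads, -0.10) had lower ratios. Ends of the chaperone genes Hspa8 (288 and 286 reads, 0.71, interval 0.47 to 0.96), Hsp90aa1 (208 and 201 reads, 0.75) and Hspb1 (192 and 136 reads, 1.20, interval 0.88 to 1.53) were members too.

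Fold enrichment over local background varied among the gene-end members, from 2.06 to 11.7 in Dll1-. At Fosb the highest fold over local background was 3.23 in Dll1+ and 3.22 in Dll1-, where the median over distal members was 8.57 and 8.32. A local background over 10 times the genome-wide one was present in Dll1+ at 13 distal members, 10 of them at a gene end. Among other distal regions on such a background, 15.4% were at a gene end. These 13 were picked by their background in Dll1+ alone, so the direction of their ratios is not read. Without all regions on a background over 10 times the genome-wide one in either list, 13.8% of distal members were past 1.5-fold higher in Dll1+ and the median was 0.14.

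Members held more reads than most regions but ranked lower by fold enrichment. The median promoter member had its strongest summit at percentile 88.4 by reads and 71.1 by fold in the Dll1+ list, and distal members 76.0 and 61.5. The local background was a median of 15.1 reads in promoter members and 10.4 in distal members, against 9.87 and 4.74 in the other regions of each class. The Dll1- list gave 24.4 and 16.5 reads for promoter and distal members.

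Genes were set against lists by role, as counts beside all coding genes. Of 21911 coding genes, 1097 (5.01%) had a promoter member and 273 (1.25%) were the nearest gene of a distal member. Among Notch pathway genes, Dll1 had a promoter member. Distal members lay nearest to Dll1, to Rbpj, which encodes the DNA-binding factor of the pathway (53 and 97 reads, -0.17), and to the coactivator gene Maml3 (195 and 391 reads, -0.30). Of 16 genes of NF-kB subunits and inhibitors, Nfkb1 and Nfkb2, which encode its precursor subunits, had promoter members. The strongest summit of Nfkb1 held 97 reads in Dll1+ and 158 in Dll1- (0.00, interval -0.38 to 0.37), and that of Nfkb2 held 268 and 498 (-0.19, interval -0.41 to 0.03). The inhibitor gene Nfkbiz had a member past its end with 48 and 64 reads (0.29, interval -0.28 to 0.85). These are different summits, and next to the strongest Dll1+ one the Dll1- list held 47 reads, or 28.8 after scaling.

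Of 24 luminal identity genes, the progesterone receptor gene Pgr (44 and 49 reads, 0.55, interval -0.07 to 1.17) and Kit (148 and 194 reads, 0.31, interval 0.00 to 0.63) had promoter members. Krt18, a keratin of luminal cells, had one past its end with 1 row in Dll1+ and 5 in Dll1- (46 and 68 reads, 0.14, interval -0.43 to 0.70). Here too the summits differ, and the Dll1- summit next to that of Dll1+ held 44 reads, or 27 after scaling. Of 18 basal identity genes only Cdh3, which encodes P-cadherin, had a promoter member (101 and 187 reads, -0.18, interval -0.55 to 0.17). The keratin genes Krt5, Krt14 and Krt8 had none. Immediate-early genes had 1 promoter member (Egr1) and 5 genes nearest to a distal member among 28 genes (17.9%). Of 22 heat shock and chaperone genes, a list chosen after values were seen, 2 had promoter members (Hsp90ab1 and Dnajb4, the latter shared with Fubp1) and 3 distal ones. One of 40 ribosomal protein genes, Rpl7, had a promoter member, shared with Rdh10. No member touched or lay nearest to any of 10 milk protein, 20 epithelial adhesion or 39 Hox genes. The same held for 10 immune, 8 endothelial, 8 fibroblast and 6 erythroid marker genes, of which 2, 1, 3 and 1 had any promoter region in either list, while 22 of 24 luminal and 14 of 18 basal genes had one.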

How the data were processed

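ATAC-seq was performed by the authors on sorted Dll1+ and Dll1- cells of 7 samples, and each population was run through the ENCODE ATAC-seq pipeline as a pool. The peak caller and its thresholds are not given in the sources used here. The genome build is GRCm38 (mm10) per the submitters' processing notes. The deposited lists give, per row, an interval, a summit, a ratio (fold enrichment over local background), a -log10 p-value, a -log10 q-value and a score. Per the files, the deposited score follows the -log10 p-value up to an upper limit, and neither it nor the deposited q-value was used. The authors' later read counts per sample were not analysed here.

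From the deposited fold and p-value of each row, reads and local background were recovered under a Poisson model with a pseudocount of 1. In a check on 20000 simulated rows 100% of reads were recovered exactly. The reads carry no molecular identifiers and several may stem from 1 molecule, so the intervals (Wilson for shares, exact for ratios of reads, 95%) cover counting error only. Gene models are from the basic GENCODE annotation and sequence from the RefSeq copy of GRCm38, with coordinates counted from 1. Python 3.11.15, numpy 2.4.6, pandas 2.3.3, scipy 1.17.1, pysam 0.24.0 and matplotlib 3.10.9 were used.

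Regions are named by the gene whose TSS they overlap or by the nearest coding TSS. Those named are the 8 members per class with the most rows, the 4 per class and direction with the largest difference in rows or in log2 ratio, members at the thresholds, members called in 1 list, Dll1, Nfkb1 and up to 4 per gene list. Immediate-early and heat shock members and sequences were shown beyond this, chosen after values were seen. The members and lists were chosen with earlier results of these data known. Windows that overlap an annotated exon are not printed, and some members that the naming rule covers are not reported here. No per-sample value was used, so no p-value was computed.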

Additional observations from a re-analysis of the deposited data

How the results depend on the processing

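No paired analysis was possible because each list pools the samples of its population, which also left no way to leave out a sample. With a minimum width of 2000 bp there were 144 members (84.7% promoter, more Dll1+ rows in 54.5% of distal members). With 5 rows there were 764 (82.9% promoter, more Dll1+ rows in 52.4% of promoter and 51.1% of distal members), and with 4 rows required in both lists 860 (82.0%, 35.2% and 29.7%). Equal row numbers gave more Dll1+ rows in 64.3% and 61.8%, and thinning the Dll1- reads by the background ratio 52.3% and 49.8%. The promoter share was 48.9% by the midpoint, 74.4% with coding TSSs only and 82.1% with 2500 bp each side. The median log2 ratio was 0.12 in promoter members from reads summed over summits. It was 0.25 in promoter and 0.40 in distal members scaled by the genome-wide background, 0.055 and 0.21 scaled by shared promoters, and -0.0617 and 0.00463 from the deposited fold. Past 2-fold were 0.291% (Dll1+) and 0.0971% (Dll1-) of promoter members, and 3.91% and 0.356% of distal members. With 50 bp each side of the summit, AP-1 was in 8.12% of distal member windows, NFY in 10.2% and SP/KLF in 34.3% of promoter member windows; at the strongest summit alone these were 15.6%, 25.3% and 68.2%. Neighbouring summits of promoter members 150 to 250 bp apart made up 16.3% in the Dll1- list. Equal row numbers and thinning raise the share with more Dll1+ rows by construction. The cause of the other moves was not tested. The other 16 values moved by less than their 95% counting interval or by less than 1.5 times. Among these was the alternative without regions on a background over 10 times the genome-wide one, added after the data were seen. Depth limits the Dll1+ list most, where a region that is not listed may be open.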
